A study of Rattus norvegicus with 6 samples.

Results

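The genes that encode the lysyl oxidases and the procollagen processing proteases were described in cultured neonatal rat cardiac fibroblasts. Members were found by gene symbol, from a list drawn up with earlier results of these data known, 5 lysyl oxidases (Lox, Loxl1, Loxl2, Loxl3 and Loxl4) and 4 procollagen processing genes (Bmp1, Tll1, Pcolce and Adamts2), and all 9 were found among the 21857 symbols of the count files. RNA-seq was performed on 6 libraries, 3 of a Vector group (genotype label WT) that received the empty plasmid and 3 with the genotype label FTO overexpression that received a plasmid with the rat FTO cDNA. FTO erases N6-methyladenosine (m6A), a methyl mark on RNA, and the comparison asked how gene expression differed when it was supplied. All 6 were primary heart cells of rats at most 3 days old, healthy and of the Sprague-Dawley stock according to the design text, while the strain label reads "Noway", and cells were collected 48 h after lipid transfection. Cells of digested hearts were separated by adhesion and not sorted, transfection was transient, and nothing says that the replicates of a group came from separate cultures or animals, so that p-values measure only the spread between these libraries, which may be technical.

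Fibrillar collagens are secreted as procollagens with a propeptide at each end. ADAMTS2 and its relatives remove the N-propeptide, BMP1 and the tolloid-like proteases such as TLL1 remove the C-propeptide, and PCOLCE speeds the latter step, after which the molecules assemble into fibrils. Lysyl oxidases, secreted copper enzymes, then oxidise lysines of collagen and elastin so that covalent cross-links form, the step that gives scar tissue of the heart its stiffness.

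Counts are given as CPM, the usual depth-scaled unit, after TMM normalization (the trimmed mean of M-values of edgeR). Totals per library ran from 13178952 to 17857999 counts, and the 9 members held 0.285 to 0.291% of the counts in the Vector libraries against 0.358 to 0.368% in the libraries labelled FTO. Fto itself was at 87.8, 89.6 and 87.4 CPM in the Vector libraries and at 93.2, 90.8 and 92.9 CPM in those labelled FTO, a log2 fold change of 0.06 (SE 0.0468, adjusted p = 0.239 by the quasi-likelihood test of edgeR, 95% interval of the fold 0.976 to 1.12). The rise that the label states was therefore not seen in the transcript counts. Whether reads of the plasmid's cDNA were counted under this symbol is not given in the sources used here, and the group is called "labelled FTO" throughout. Summed over marker lists, cardiomyocyte markers ran from 1389 to 1422 CPM in Vector and from 2025 to 2066 CPM in the libraries labelled FTO (4 of 5 higher and Tnnt2 lower), and macrophage markers from 344 to 367 and from 84.4 to 105 CPM (6 of 7 lower and 1 higher). Fibroblast markers were present in all libraries at 3822 to 3989 and 2717 to 2792 CPM (2 higher, 3 lower), mural markers at 325 to 338 and 205 to 243 CPM (2 higher, 2 lower of 4 tested), epicardial markers at 25.2 to 27.1 and 108 to 121 CPM (2 higher, 1 lower), endothelial markers at 7.18 to 8.78 and 17.8 to 18.7 CPM (2 of 3 tested higher) and Schwann markers at 4.68 to 5.68 and 4.46 to 4.84 CPM (1 of 2 tested lower). Single genes carried several of these sums. Vim (means of 3161 CPM in Vector and 1250 CPM in the libraries labelled FTO) was the largest fibroblast marker, while Pdgfra rose from 173 to 976 CPM. Msln (2.83 to 87.1 CPM) made most of the epicardial rise, while Upk3b fell. Among mural markers, Notch3 fell from 226 to 14.9 CPM and Kcnj8 rose from 2.06 to 60.8 CPM. The macrophage marker that rose was Adgre1 (6.81 to 31.7 CPM). Of all genes tested, 33.2% were called higher and 32.8% lower (edgeR adjusted p under 0.05). No marker was at 0 in all 6 libraries. These levels differed between the groups together with the members, and their part in the members' values was not tested. In bulk RNA, fewer cells of a type and less RNA per cell cannot be told apart.

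The members did not change as a block. With an adjusted p under 0.05 by edgeR, 8 of 9 members passed, against 65.9% of the 12941 genes tested. Lox, Loxl3, Loxl4 and Bmp1 rose, 4 of 9 beside 33.2% of all genes, and Loxl1, Loxl2, Tll1 and Adamts2 fell, 4 of 9 beside 32.8%. Pcolce alone did not pass. The median log2 fold change of the members was -0.06 beside 0.00 for all genes tested, while the median size of the change regardless of sign was 0.63 beside 0.36. Lox, Loxl1, Tll1 and Adamts2 passed the threshold of the study, a log2 fold change of at least 1 in size with an unadjusted p under 0.05, as did 19.6% of all genes. The CPM values of the 2 groups did not overlap for any of the 9 members, nor did they for 70.3% of all genes.

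**Figure D1:**
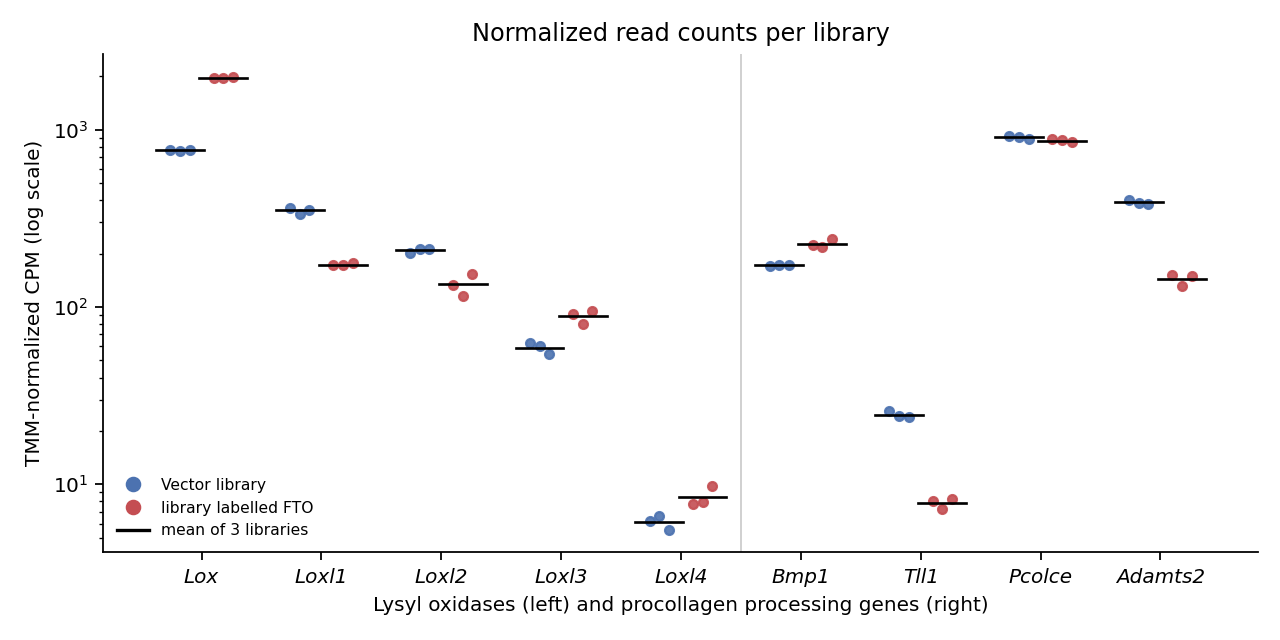
TMM-normalized CPM (log scale) of the 9 members in each library, with blue points for Vector, red points for the libraries labelled FTO and a bar for the mean of 3. Lox sat near 765 CPM in Vector and near 1970 CPM in the other group, whereas Loxl1, Loxl2, Tll1 and Adamts2 were lower there and the Pcolce points nearly met.

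Lox encodes the founding lysyl oxidase, which acts on fibrillar collagen and elastin. It was at 765, 757 and 772 CPM in the Vector libraries and at 1965, 1957 and 1989 CPM in the libraries labelled FTO. Every library labelled FTO stood far above every Vector library, and the replicates of each group lay close together. The means of 765 ± 7.57 and 1970 ± 16.6 CPM (SD, n = 3) gave a fold of 2.58 (95% interval 2.44 to 2.72) and a log2 fold change of 1.37 (SE 0.0366, edgeR adjusted p = 4.3e-14). Of all genes tested, 92.3% had a lower log2 fold change than Lox.

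Loxl1, the paralog that is best known for its work on elastic fibres, moved the other way. Its level was 363, 337 and 353 CPM in Vector and 172, 172 and 177 CPM in the libraries labelled FTO. The groups were wide apart, with the latter at close to equal values. The log2 fold change was -1.01 (SE 0.0429, edgeR adjusted p = 1.2e-11), a level 2.02-fold higher in Vector, which placed Loxl1 just inside the threshold of the study, and without Vector replicate 1 it was -0.99. Loxl2, which acts on collagen IV among other substrates and carries scavenger receptor domains, was at 202, 213 and 211 CPM in Vector and at 134, 116 and 153 CPM in the libraries labelled FTO. It too was lower in all 3 of these, although they were less alike than the Vector libraries. Its log2 fold change was -0.63 (SE 0.0731, edgeR adjusted p = 1.8e-06).

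Loxl3 and Loxl4, the other members with scavenger receptor domains, rose by smaller steps. Loxl3 was at 62.4, 60.1 and 54.6 CPM in Vector and at 90.9, 80.5 and 94.4 CPM in the libraries labelled FTO, and its log2 fold change was 0.59 (SE 0.0679, edgeR adjusted p = 1.9e-06). The lowest library labelled FTO remained well above the highest Vector library. Loxl4 was at 6.22, 6.64 and 5.54 CPM in Vector and at 7.79, 7.93 and 9.83 CPM in the other group, from 80 to 99 and from 105 to 176 counts. Here the gap between the groups was narrow. The log2 fold change of Loxl4 was 0.48 (SE 0.141, edgeR adjusted p = 0.00742), and against a fold of at least 1.2 (glmTreat of edgeR) its adjusted p was 0.0519, so that this call was lost.

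Together, the opposite changes altered the make-up of the lysyl oxidase reads. The 5 genes summed to 1389 ± 14.0 CPM in Vector and to 2375 ± 45.2 CPM in the libraries labelled FTO (SD, n = 3), a fold of 1.71, while the 4 genes other than Lox summed to 625 ± 8.47 and 405 ± 28.9 CPM. The higher sum was thus the rise of Lox, set against a lower sum of the rest. Lox took 54.7, 55.1 and 55.3% of the lysyl oxidase reads in Vector and 82.9, 83.9 and 82.1% in the libraries labelled FTO, a difference of 27.9 percentage points between the means. The share of Loxl1 was 25.2 ± 0.701% and 7.31 ± 0.0551%, and that of Loxl2 was 15.0 ± 0.535% and 5.64 ± 0.671%. Loxl3 rose in CPM, yet its share was 4.25 ± 0.297% in Vector and 3.73 ± 0.242% in the libraries labelled FTO, without overlap. Loxl4 shares overlapped, at 0.442 ± 0.0435% and 0.358 ± 0.0416% (exact permutation test, two-sided, p = 0.2). For the other 4 shares and both sums the exact p was 0.1, the smallest that 3 libraries against 3 can give, so that none could pass 0.05. Shares are of reads and were not corrected for transcript length. They sum to the whole in each library and are not independent of each other.

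**Figure D2:**
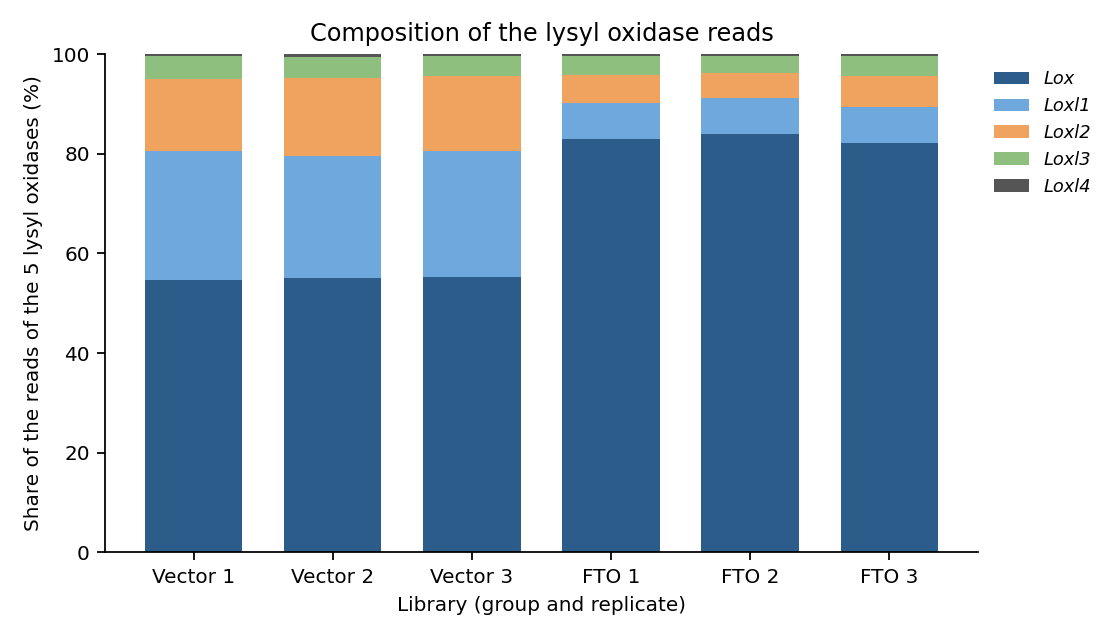
Share of each of the 5 genes among the lysyl oxidase reads of a library, in percent, stacked for the 3 Vector libraries and the 3 libraries labelled FTO. The Lox segment was near 55.0% in each Vector library and near 83.0% in the others, and the Loxl1 segment shrank from near 25.2% to near 7.31%.

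Among the processing genes, both C-proteinase genes changed, in opposite directions. Bmp1, whose protease removes the C-propeptide and also activates the LOX proenzyme, was at 170, 173 and 173 CPM in Vector and at 223, 218 and 241 CPM in the libraries labelled FTO. The 3 Vector values were almost equal and all lay below the other group. The fold was 1.32 (95% interval 1.24 to 1.41) and the log2 fold change 0.40 (SE 0.0458, edgeR adjusted p = 1.6e-06). Tll1, a tolloid-like protease with the same kind of activity, was at 25.8, 24.2 and 23.8 CPM in Vector and at 8.0, 7.25 and 8.21 CPM in the libraries labelled FTO, from 344 to 360 and from 96 to 147 counts. All libraries labelled FTO were far below all Vector libraries. Tll1 was 3.13-fold higher in Vector, with a log2 fold change of -1.65 (SE 0.0956, edgeR adjusted p = 5.7e-10), and only 4.57% of all genes tested had a lower value.

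Adamts2, which encodes the main N-proteinase of collagens I to III, was at 402, 384 and 381 CPM in Vector and at 152, 131 and 149 CPM in the libraries labelled FTO. The groups were well separated. The level was 2.70-fold higher in Vector, with a log2 fold change of -1.43 (SE 0.0533, edgeR adjusted p = 2.5e-12). Pcolce, the gene of the enhancer of C-propeptide removal, was at 927, 908 and 888 CPM in Vector and at 882, 871 and 853 CPM in the libraries labelled FTO. Each of the latter was below each Vector library, but by little. The fold was 0.957 (95% interval 0.905 to 1.01), with a log2 fold change of -0.06 (SE 0.0377, edgeR adjusted p = 0.151).

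Because the 2 groups of members each held genes that rose and genes that fell, the members were also set against each other within each library, as log2 ratios of counts. In all, 16 pairs were compared, 10 among the lysyl oxidases and 6 among the processing genes, and in 15 the ratios of the groups did not overlap. Over all pairs of genes tested, 72.1% did not overlap either (counts plus 0.5), so a high count is common to pairs in these data. The exact permutation p was 0.1 for these 15, the smallest this design allows, with an adjusted p of 0.107 over the 16 pairs. The ratio of Lox to Loxl1 was 5.20-fold higher in the libraries labelled FTO, a log2 difference of 2.38, and that of Lox to Loxl3, which rose together, was still higher by 0.78. Bmp1 over Tll1 was 4.16-fold higher and Bmp1 over Adamts2 3.57-fold higher. Tll1 over Adamts2, both of which fell, differed by -0.22. Only Loxl3 over Loxl4 overlapped, with a log2 difference of 0.12 (exact permutation p = 0.4).

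The 250 bases upstream of the annotated start are shown for 3 members whose transcripts moved in different ways, Adamts2 and Tll1, which fell, and Loxl3, which rose. Windows came from RefSeq (build GRCr8, a later build than the rn6 named in the submitters' processing notes) and could be matched by symbol for 6 of the 9 members, Adamts2, Loxl1, Loxl3, Loxl4, Pcolce and Tll1. Capitals mark motifs, which were searched on both strands. The GC box was spelled GGGCGG. The CCAAT box was searched by the letters of its name. The core bound by TEAD factors was spelled GGAATG, the core of the hypoxia response element was spelled ACGTG, and the TATA box was spelled TATAAA. No motif overlapped another in these windows. Adamts2 lies at chr10:35421780-35422029 (plus strand), Tll1 at chr16:30275242-30275491 (plus strand) and Loxl3 at chr4:117098108-117098357 (plus strand).
Adamts2: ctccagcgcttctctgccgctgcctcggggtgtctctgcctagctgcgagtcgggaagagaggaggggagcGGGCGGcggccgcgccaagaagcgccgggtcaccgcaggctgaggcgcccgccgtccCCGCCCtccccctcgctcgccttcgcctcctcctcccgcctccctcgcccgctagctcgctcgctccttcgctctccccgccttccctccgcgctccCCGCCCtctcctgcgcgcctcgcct
Tll1: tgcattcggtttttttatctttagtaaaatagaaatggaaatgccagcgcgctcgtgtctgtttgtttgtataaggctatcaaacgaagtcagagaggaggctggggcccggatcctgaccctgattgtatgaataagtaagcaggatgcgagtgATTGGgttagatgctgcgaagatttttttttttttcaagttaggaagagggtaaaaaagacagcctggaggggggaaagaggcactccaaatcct
Loxl3: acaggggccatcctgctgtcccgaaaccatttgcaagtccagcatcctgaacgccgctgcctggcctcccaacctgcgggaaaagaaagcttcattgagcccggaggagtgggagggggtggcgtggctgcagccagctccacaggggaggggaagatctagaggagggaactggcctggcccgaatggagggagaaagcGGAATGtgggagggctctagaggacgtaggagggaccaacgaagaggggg

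The windows shown for genes that fell, Adamts2 and Tll1, were unlike. That of Adamts2 was 75.6% G or C with 33 CpG and 3 GC boxes, and that of Tll1 was 43.6% G or C with 8 CpG and 1 CCAAT box read on the other strand. The Loxl3 window held 62.4% G or C, 10 CpG and 1 TEAD core. That of Loxl1, which fell and is not printed, was near it at 60.4% G or C, 5 CpG and 1 TEAD core. Over all 33469 windows of this length the median was 51.2% G or C, with quartiles of 44.0 and 60.0%. A GC box was in 30.5% of all windows and in those of Adamts2, Loxl4 and Pcolce, a CCAAT box in 34.0% and in those of Loxl4 and Tll1, and a TEAD core in 12.1% and in those of Loxl1 and Loxl3. ACGTG was in 16.6% and TATAAA in 12.9% of all windows and in none of the 6. Only the ACGTG spelling of the hypoxia response core was searched, so other spellings of it were not counted. A match is a stretch of letters and does not show binding.

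Transcripts of the listed and tested substrates of these enzymes were lower in the libraries labelled FTO. The list of substrates, too, was drawn up with earlier results of these data known. It left out Col1a2, another gene of collagen I, and the collagen IV genes, so it does not cover all substrates. Of the 11 fibrillar collagen and elastin genes on the list, 10 were tested, and each was below its Vector level (edgeR adjusted p under 0.05), beside 32.8% of all genes tested, with a median log2 fold change of -1.78. Col1a1, the chain that makes up most of collagen I, was at 25809 ± 337 and 8268 ± 377 CPM, Col3a1 at 10699 ± 90.0 and 3338 ± 363 CPM, and elastin (Eln) at 2313 ± 63.9 and 390 ± 31.6 CPM (SD, n = 3). The changes ran from a log2 fold change of -3.82 for Col11a1, a chain of collagen XI, to -1.08 for Col5a2. Lox thus rose in libraries in which the transcripts of its listed and tested substrates were lower. By contrast, Tll1 (-1.65) and Adamts2 (-1.43) had changes close to those of Col1a1 (-1.64) and Col3a1 (-1.68).

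**Figure D3:**
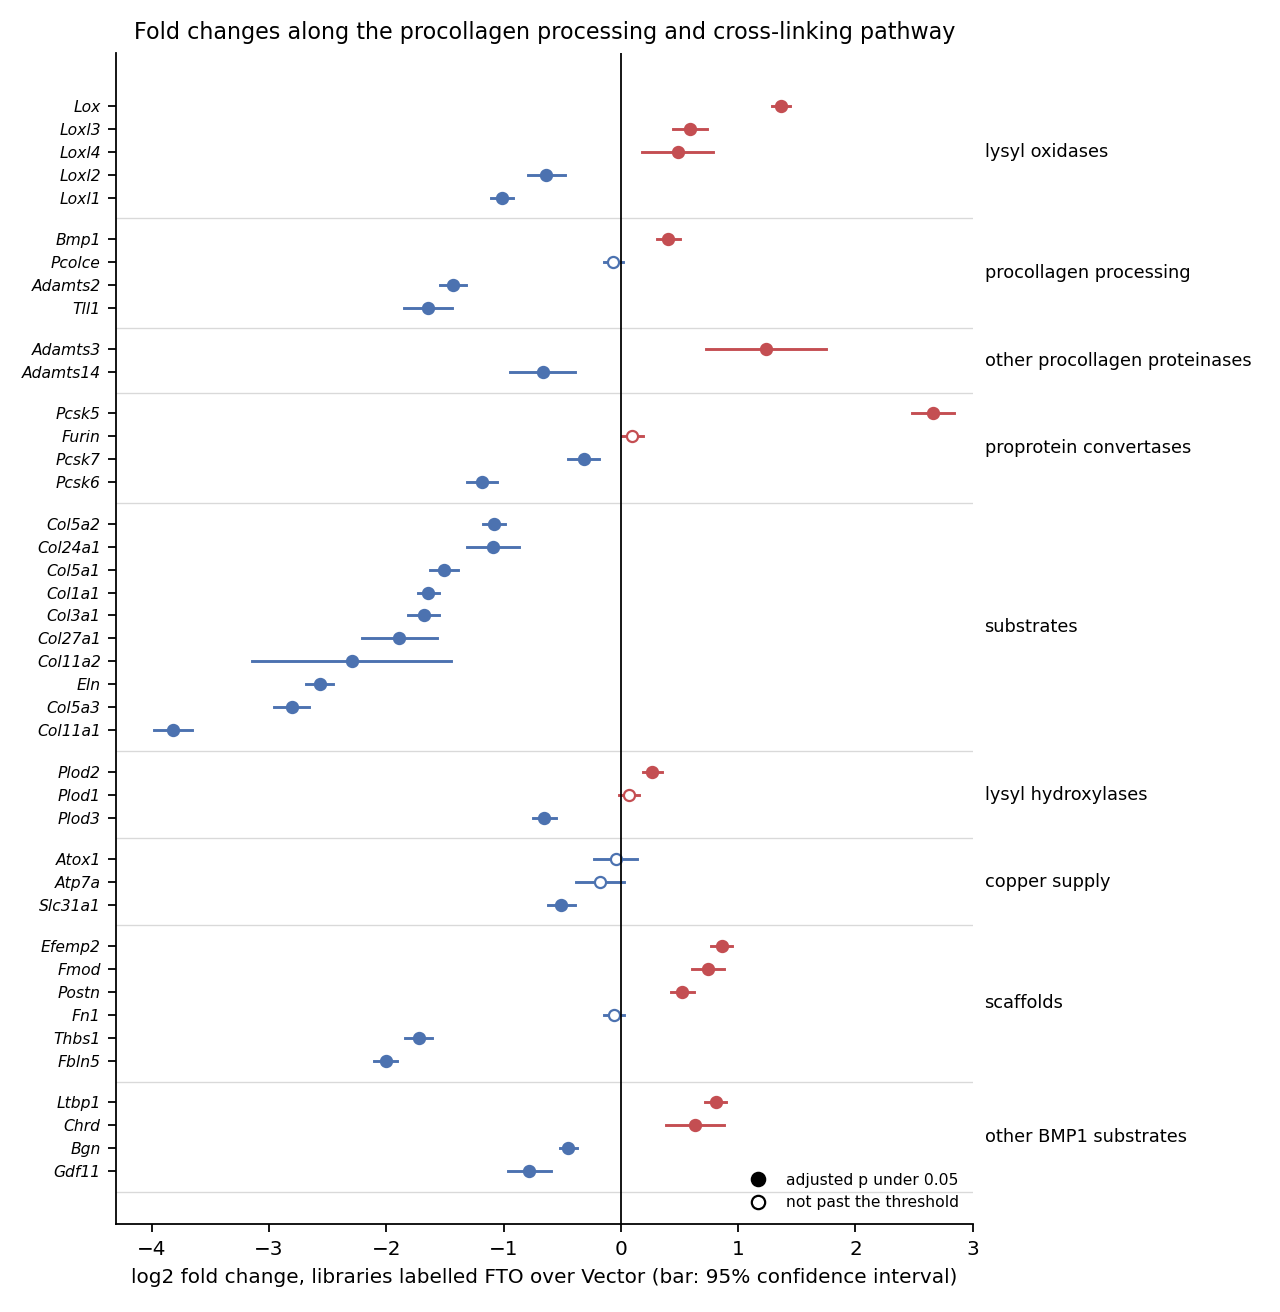
Log2 fold change against Vector (libraries labelled FTO over Vector) with its 95% confidence interval, for the members and the tested genes of 7 further lists, red above 0, blue below 0 and filled where the edgeR adjusted p was under 0.05. The substrates all lay between -3.82 and -1.08, whereas the called genes of the other lists lay on both sides of 0, except for the copper genes, whose single call was lower.

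Members were also set against their substrates, as the reads of a member per 1000 reads of Col1a1 and Col3a1 of the same library. Lox rose from 21.2, 20.5 and 21.1 in the Vector libraries to 166, 181 and 164 in the libraries labelled FTO, an 8.11-fold difference. The ratio was 4.73-fold higher for Loxl3, 4.36-fold for Loxl4, 4.16-fold for Bmp1 and 3.01-fold for Pcolce. Genes that fell in CPM were also higher per collagen read, Loxl1 by 1.56-fold, Loxl2 by 2.01-fold and Adamts2 by 1.17-fold, the latter at 11.1, 10.4 and 10.4 against 12.8, 12.2 and 12.3. In these 8 members the groups did not overlap (exact permutation p = 0.1 each, the smallest possible, and 0.1125 after adjustment over the 9 members). Tll1 stood apart, at 0.717, 0.655 and 0.650 per 1000 in Vector and at 0.674, 0.671 and 0.676 in the libraries labelled FTO, where the groups overlapped and the means were equal to 3 digits at 0.674 (exact permutation p = 1). All 9 ratios share a denominator that itself fell about as Col1a1 did, so they are not separate results, and 93.1% of all genes tested were likewise higher per collagen read without overlap. The count of 8 is therefore no result about the members. When reads of Fn1 (fibronectin), which did not pass the test, were the denominator, 4 members were higher and 4 lower without overlap, beside 37.6% and 29.7% of all genes, and Pcolce overlapped.

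**Figure D4:**
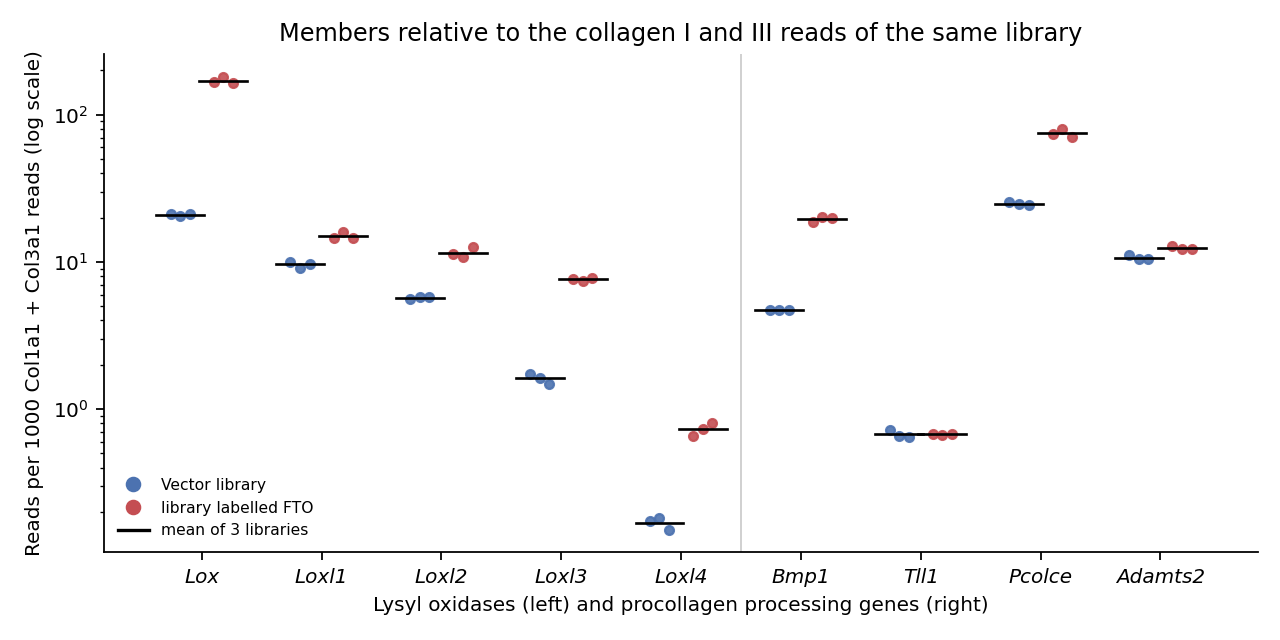
Reads of each member per 1000 Col1a1 and Col3a1 reads of the same library (log scale), blue for Vector, red for the libraries labelled FTO, with a bar for the mean of 3. The points of Lox moved from near 21.0 to near 170, those of Tll1 overlapped around group means of 0.674, and all other members were higher in the libraries labelled FTO.

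Other genes of the pathway were taken from lists that, like the members, were drawn up with earlier results of these data known. The counts per list stand beside 33.2% of all genes tested called higher and 32.8% called lower (edgeR adjusted p under 0.05). In the list of other procollagen proteinases, 2 of 5 were tested and both changed, in opposite directions. Adamts3, a close relative of Adamts2, was at 3.15, 3.15 and 3.39 CPM in Vector and at 5.68, 5.89 and 10.8 CPM in the libraries labelled FTO (log2 fold change 1.23, SE 0.239, edgeR adjusted p = 3.3e-04). The third N-proteinase gene, Adamts14, was at 23.0, 23.2 and 22.6 CPM and at 12.3, 12.1 and 18.4 CPM (-0.67, SE 0.130, edgeR adjusted p = 3.6e-04). For both, replicate 3 of the libraries labelled FTO stood above the other two, and the groups did not overlap. Tll2 had too few counts to be tested, and Mep1a and Mep1b were at 0 in all libraries.

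Proprotein convertases, which cut the propeptide from BMP1 and ADAMTS zymogens, held the gene with the largest rise on these lists. Pcsk5 was at 15.0, 15.4 and 16.0 CPM in Vector and at 95.5, 87.9 and 110 CPM in the libraries labelled FTO. That is 6.32-fold (95% interval 5.57 to 7.17), a log2 fold change of 2.66 (edgeR adjusted p = 3.5e-13). Pcsk6 fell from 78.8 ± 3.90 to 34.7 ± 0.784 CPM (-1.18, edgeR adjusted p = 9.7e-11) and Pcsk7 from 43.2 ± 1.49 to 34.7 ± 0.659 CPM (-0.32, 3.6e-04). Furin, the convertase best known for these cuts, was at 229 ± 6.37 and 245 ± 5.87 CPM (0.10, edgeR adjusted p = 0.0573) and did not pass. Without replicate 2 of the libraries labelled FTO, its adjusted p was 0.0259.

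The lists next to the lysyl oxidases were mixed as well. Of the lysyl hydroxylases, which prepare the lysines of collagen, Plod2 rose (1152 ± 7.81 to 1389 ± 51.4 CPM, log2 fold change 0.27), Plod3 fell (205 ± 6.85 to 130 ± 2.55 CPM, -0.65) and Plod1 did not pass (0.07). Among the genes of copper supply, Slc31a1, the copper importer of the plasma membrane, fell (96.0 ± 2.24 to 67.5 ± 3.32 CPM, -0.51, edgeR adjusted p = 6.4e-07), while Atp7a, which loads copper into secreted enzymes, was at -0.18 (edgeR adjusted p = 0.113, and 7.3e-04 without replicate 3 of the libraries labelled FTO) and Atox1 at -0.04. Thus no gene of copper supply was called higher.

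Of 6 matrix proteins that hold lysyl oxidases or their substrates in place, 3 rose and 2 fell, beside 33.2% and 32.8% of all genes. Efemp2 (fibulin-4), which brings LOX to tropoelastin, was at 239 ± 2.75 CPM in Vector and rose to 433 ± 18.9 CPM (log2 fold change 0.86, edgeR adjusted p = 9.2e-11). Fbln5 (fibulin-5), which binds LOXL1, was at 374 ± 3.07 CPM in Vector and fell to 93.2 ± 4.65 CPM (log2 fold change -2.00, edgeR adjusted p = 6.8e-15). Efemp2 had the direction of Lox and Fbln5 that of Loxl1, the partners named here, but Thbs1 did not have that of Lox. Other partners were not compared. Whether such directions are linked was not tested. Fmod (0.75), a proteoglycan that guides LOX on collagen, and Postn (0.52), which binds BMP1, also rose, Thbs1 (-1.72), which binds the LOX proenzyme, fell, and Fn1 (-0.06, edgeR adjusted p = 0.233) did not pass, though without replicate 3 of the libraries labelled FTO its adjusted p was 0.0104. Among BMP1 substrates other than procollagen, 4 of 5 were tested, with Ltbp1 (0.81) and Chrd (0.63) higher and Bgn (-0.45) and Gdf11 (-0.78) lower.

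Profiles over the 6 libraries were compared by the Euclidean distance of gene-centred log2 CPM among 10041 genes with a mean of at least 100 counts. Nearest to Lox were P4hb, the protein disulfide isomerase that is also a subunit of prolyl 4-hydroxylase (distance 0.0756, 1511 ± 7.71 to 3809 ± 82.5 CPM), Ifitm2 (0.0868, a gene of a family with near copies, whose counts are uncertain) and Pkm, pyruvate kinase (0.0869). Nearest to Bmp1 were Parp4 (0.0620), Mid1 (0.0624) and Man2c1 (0.0641), with log2 fold changes of 0.39, 0.42 and 0.37. Such distances mostly reflect the difference between the groups and are given as a description.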

How the data were processed

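RNA-seq was analysed from the raw counts per gene symbol that the authors deposited, 1 file per library, for 3 Vector and 3 FTO libraries. Per the submitters' processing notes, reads were trimmed with Trimmomatic and the genome build was rn6, and the aligner, counter, annotation and use of strand are not given in the sources used here, so reads of overlapping or antisense genes could not be told apart. The genotype label gave the group of a library and its title the replicate number. Members and lists were chosen with earlier results of these data known. Named genes were the 9 members, Fto, the genes of the pathway lists and the 3 profiles nearest to Lox and to Bmp1.

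Genes were kept with filterByExpr (minimum count 10), scaled by TMM (factors 0.995 to 1.005) and compared by the two-sided quasi-likelihood test of edgeR 4.0.16 in R 4.3.3 on all 12941 genes, with Benjamini-Hochberg adjustment over all of them and no covariate. The main fit was also run on simulated counts with known fold changes. That simulation changed few genes and gave all genes the same dispersion, unlike these data, so it does not test the calls made here. Shares and ratios were compared by exact permutation over libraries (smallest p 0.1). Alternatives were limma 3.58.1 (voom), DESeq2 1.42.0, other scalings and filters, glmTreat, a replicate block and leaving out each library. Libraries held 13178952 to 17857999 counts, and 3 counts were worth 0.168 to 0.227 CPM. Intervals cover counting error and spread between libraries only. No library was a copy of another. Log2 CPM of the 12941 genes tested correlated at 0.992 to 0.994 within groups and at 0.873 to 0.880 between them. No pairing by replicate number was detected, with correlations of deviations of 0.00284, -0.0693 and 0.0207 for samples of equal number. Other pairs ran from -0.0935 to 0.0873. With 3 libraries per group, these values cannot show that no pairing exists. Transcript lengths were not used, so shares and ratios are of reads, not of transcripts, and were compared between the groups.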

Additional observations from a re-analysis of the deposited data

How the results depend on the processing

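All 9 members kept their direction under the 14 alternatives of the fit. Of the 8 calls, Loxl4 alone was lost, against a fold of 1.2. That left 7 members called, where the same test called 5668 of 12941 genes. Pcolce was not called under any alternative. Of the members, 3 to 4 passed the threshold of the study, since the log2 fold change of Loxl1 was -0.99 without Vector replicate 1. Called genes on the other lists numbered 25 to 29 of 32 tested (27 in the main analysis, beside 65.9% of all genes tested). The lowest number was again the test against a fold of 1.2. Pcsk7 (adjusted p 0.147) and Plod2 (0.358) were lost against a fold of 1.2 in edgeR, Furin, Atp7a and Fn1 were gained under 1 to 3 alternatives, and Atox1 ran from -0.12 to 0.051 leaving out a library, above 0 without FTO replicate 3. Fto had an adjusted p of at least 0.182. DESeq2 called 7795 genes, limma-voom 8488, the fit with no filter 9009 and glmTreat 5668, beside 8531. With a replicate block 8399 genes and 8 members were called. Since no pairing by number was detected, this block is given for completeness. The median log2 ratio of the members to collagen reads was 1.59, from 1.54 to 1.64 leaving out a library and 1.57 with the 10 fibrillar collagens of the list, but -0.0052 with Fn1, where Loxl1 was at -0.96, Loxl2 at -0.59, Pcolce at -0.0052 and Adamts2 at -1.38, the denominator being the one thing changed. Pairs without overlap numbered 15 to 16. A length correction of the shares was not run, as no lengths were used. Loxl4, at 80 to 176 counts, was the member limited most by depth.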
